A study of Mus musculus with 4 samples.

Results

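The 10 genes described here encode the receptor, kinases, transcription factors and feedback proteins through which leukemia inhibitory factor (LIF) reaches the nucleus of mouse embryonic stem (ES) cells. They were taken by symbol from the deposited gene count tables, and all 10 were found among 41543 gene symbols: Lifr and Il6st (the receptor), Jak1, Jak2 and Tyk2 (the kinases), Stat3 and Stat5b (the transcription factors), Socs2 and Socs3 (feedback inhibitors) and Ptpn11 (a phosphatase that links the receptor to ERK). All 10 passed the filter on low counts, as did 16112 genes in total. The cells were of the E14TG2a line, in serum medium (15% FCS) with 100 units of LIF per ml on gelatin, without a feeder layer being named. Cells labelled Control, whose derivation the labels do not state, made up 2 libraries, and the other group, also with 2 libraries, was cells lacking the histone acetyltransferase KAT6A, a knockout (KO) made with CRISPR/Cas9 editing. The position of the edit, the passage of the cells and whether the libraries came from separate clones or cultures are not stated in the labels. The p-values therefore cover only how far these libraries differed within a group, which may be technical.

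LIF binds the receptor chain LIFR, which then pairs with gp130, the product of Il6st and the signalling chain shared by the interleukin-6 family of cytokines. JAK kinases held on the receptor tails phosphorylate each other, the receptor and STAT3. Phosphorylated STAT3 enters the nucleus and switches on Socs3, whose product binds gp130 and JAK and shuts the signal down, together with transcription factor genes such as Klf4 and Tfcp2l1 that keep mouse ES cells undifferentiated. A parallel arm runs from gp130 through SHP2, the product of Ptpn11, to GRB2 and ERK, and favours differentiation. STAT signalling depends on phosphorylation of proteins, which RNA counts do not measure.

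The start regions of a few of these genes are shown first, because the title of the series concerns CpG islands and because STAT proteins bind a short palindrome. RefSeq start regions on GRCm38.p6 were found for 9 of the 10 genes, with 11 starts in all, and Socs2 had no entry. In the 250 bases before the start, the palindrome TTCNNNGAA, which reads the same on both strands, was found in 7.02% of the 32851 start regions of all genes. Among the 9 genes it was found only in Socs3, once, ending 145 bases before the RefSeq start. That region lies inside the gene as the GENCODE M21 annotation places it (117966079 to 117970047, minus strand). The bases before the GENCODE start of Socs3 were not searched. The Socs3 region, chr11:117969367-117969616 on the minus strand, is printed with that match in capitals.
Socs3: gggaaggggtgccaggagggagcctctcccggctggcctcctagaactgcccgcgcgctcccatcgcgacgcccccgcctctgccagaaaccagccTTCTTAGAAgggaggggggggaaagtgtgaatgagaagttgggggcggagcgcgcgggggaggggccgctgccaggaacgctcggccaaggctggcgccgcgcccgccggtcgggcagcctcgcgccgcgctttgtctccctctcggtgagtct

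The next start regions differ in their content of CG dinucleotides, which are in capitals. They belong to the members called lower, Stat3 (chr11:100939541-100939790, minus strand) and Lifr (chr15:7129322-7129571 and chr15:7140292-7140541, plus strand), and to Jak3 (chr8:71676133-71676382, plus strand), the remaining JAK family gene, whose values are given with the kinases.
Stat3: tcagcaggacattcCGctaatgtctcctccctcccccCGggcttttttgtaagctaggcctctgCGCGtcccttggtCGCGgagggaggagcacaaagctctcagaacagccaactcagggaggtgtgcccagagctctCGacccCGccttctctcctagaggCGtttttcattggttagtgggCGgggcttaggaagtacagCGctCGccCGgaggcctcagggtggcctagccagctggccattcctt
Lifr upstream start: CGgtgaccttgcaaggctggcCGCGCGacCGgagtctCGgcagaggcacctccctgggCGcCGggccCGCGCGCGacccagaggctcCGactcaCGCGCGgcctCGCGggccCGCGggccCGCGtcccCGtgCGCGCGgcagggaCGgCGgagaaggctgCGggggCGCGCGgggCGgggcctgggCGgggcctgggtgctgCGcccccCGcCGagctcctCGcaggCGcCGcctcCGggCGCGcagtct
Lifr downstream start: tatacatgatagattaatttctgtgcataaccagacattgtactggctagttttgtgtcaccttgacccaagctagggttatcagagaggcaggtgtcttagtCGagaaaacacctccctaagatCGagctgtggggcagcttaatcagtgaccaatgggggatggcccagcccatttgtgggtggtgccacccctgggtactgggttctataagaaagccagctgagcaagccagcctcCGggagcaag
Jak3: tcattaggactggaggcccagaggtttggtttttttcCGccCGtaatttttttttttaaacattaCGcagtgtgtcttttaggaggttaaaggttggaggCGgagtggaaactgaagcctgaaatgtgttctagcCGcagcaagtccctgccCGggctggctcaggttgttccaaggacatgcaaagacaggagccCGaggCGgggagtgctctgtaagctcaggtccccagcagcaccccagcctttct

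The upstream of the 2 RefSeq starts of Lifr held 43 CG dinucleotides in 250 bases, and 99.3% of all start regions held fewer. Both RefSeq starts lie inside the gene as the GENCODE M21 annotation places it, which begins at 7090614. The region before that GENCODE start was not examined. The downstream Lifr start held 3, with 29.0% of start regions below it. Stat3 held 13 and Jak3 held 8, against a median of 6 and quartiles of 2 and 16 over all start regions. Socs3 and Il6st held 26 each, Jak2 37, Ptpn11 31, and Jak1 and Tyk2 19 each. Stat5b has a start with 40 and another with 5. The gene counts add up all transcripts of a gene, so the starts of Lifr and those of Stat5b cannot be told apart in them. Binding of KAT6A or STAT3 to these regions was not measured in these libraries.

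Libraries held between 27494041 and 37354623 counts, and the 10 genes were covered by between 375 counts (Jak2 in KO replicate 2) and 13964 counts (Stat3 in control replicate 2). Levels are given as CPM, the counts of a gene relative to the library total, on library sizes scaled by TMM, a correction for library composition. The RNA of the targeted gene did not mark the groups. Kat6a had 5143 and 5292 counts in the control libraries, 7376 in KO replicate 1 and 2375 in KO replicate 2. Scaled for library size it was at 1.69 times the control mean in KO replicate 1 and at 0.601 times in KO replicate 2, so all directions rest on the labels. The labelled cell type was checked with 8 ES cell markers, whose summed level was 4460 and 4518 CPM in the controls and 5490 and 6098 CPM in the KO libraries. Markers of endoderm were lower. The summed level of the 7 endoderm genes fixed as markers was 244 and 248 CPM in control cells, against 51.8 CPM in KO replicate 1 and 117 CPM in KO replicate 2, 4 of the 7 (Gata6, Gata4, Sox7 and Pdgfra) were called lower and none was at 0. Summed trophoblast markers ran from 70.8 to 77.7 CPM in the controls and from 61.5 to 66.2 CPM in the KO libraries, and fibroblast markers from 21.6 to 21.8 and from 25.3 to 30.0 CPM, with Col3a1 and Dcn at 0 in at least 1 library. Neural markers summed to 20.1 and 20.4 CPM in the controls and were at 0.641 and 0.693 times that mean in the KO libraries, and mesoderm markers to at most 1.11 CPM anywhere. Of these other lists Hand1 (trophoblast) and Nes (neural) were called lower and Sox1 (neural) higher, and of the ES markers Esrrb and Dppa5a were called higher. Fold changes also followed the GC content of transcripts, with a median log2 fold change of -0.22 in the 3178 genes lowest in GC and 0.23 in the 3177 highest in GC. The part of these differences in the values of the pathway genes was not tested except where a value with a GC-content correction is given.

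Stat3 and Lifr fell in the KO cells, and the other 8 genes did not pass the test. The threshold was an adjusted p under 0.05 in edgeR's quasi-likelihood test over all genes. Among the 16112 genes tested, 14.3% were called, 8.57% as lower and 5.76% as higher, against 2 of 10 called lower and 0 of 10 called higher here. At an unadjusted p under 0.05, 5 of the 10 were lower and 1 was higher. DESeq2 called 3 of the 10 lower and limma-voom 2, and neither called any of them higher. Over the 10 genes the log2 fold changes of KO against control had a median of -0.21, and over all genes 0.01. KO and control libraries did not overlap for 7 of the 10 genes, and for 64.3% of all genes. By direction, 6 of the 10 were lower and 1 was higher, against 32.8% and 31.5% of all genes, and 3 of the 6 lie on chromosome 11.

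**Figure D1:**
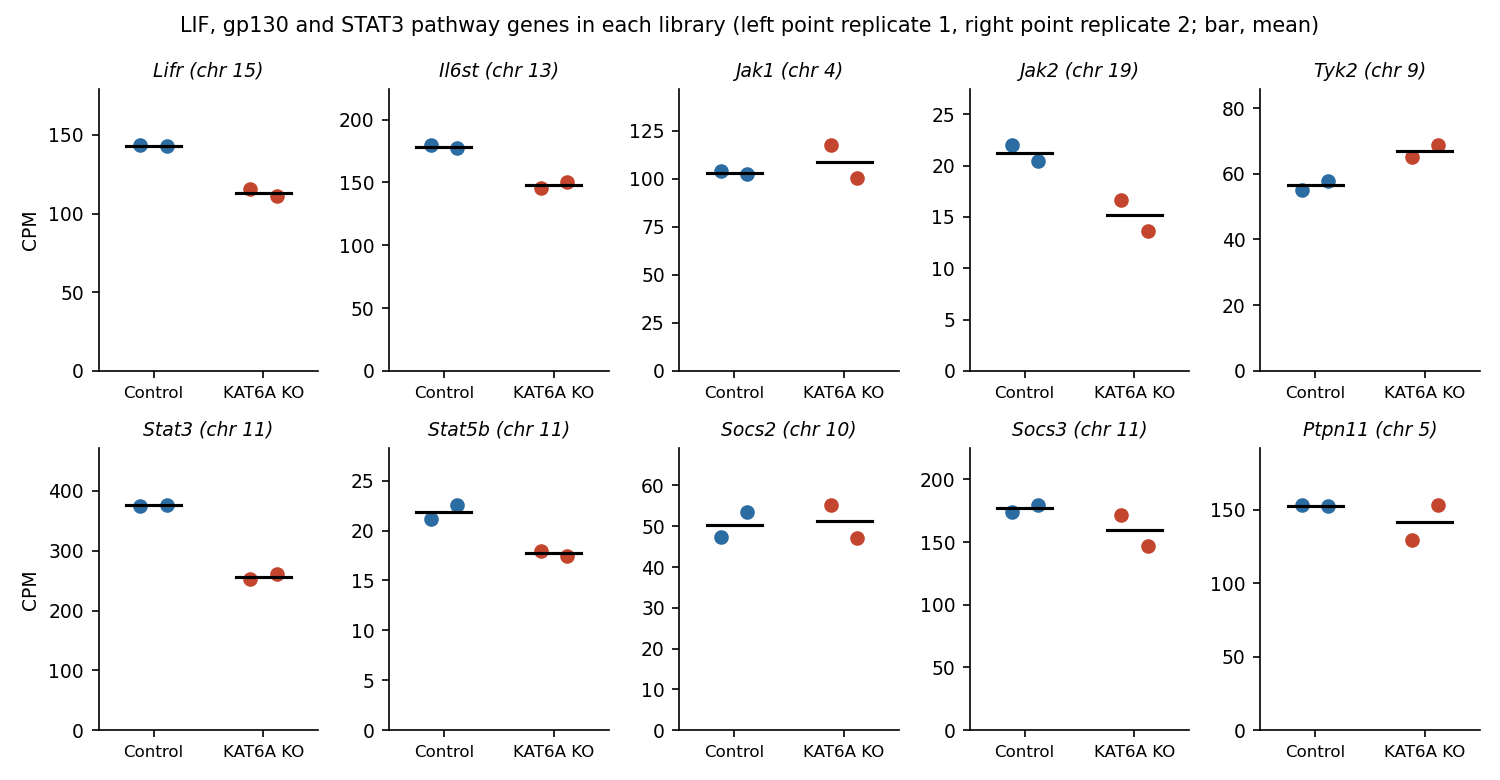
Level of each of the 10 pathway genes in CPM (vertical axis, from 0) in the control libraries (blue) and the KAT6A KO libraries (red), with replicate 1 on the left, replicate 2 on the right and a bar at the mean. Lifr, Il6st, Jak2, Stat3, Stat5b and Socs3 lie lower in both KO libraries, Tyk2 lies higher, and Jak1, Socs2 and Ptpn11 overlap.

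The receptor genes were both lower in the KO cells, Lifr by 1.26-fold and Il6st by 1.20-fold, and only Lifr passed the test. Lifr (chromosome 15, 7090614 to 7197489 in GRCm38 with GENCODE M21) had 143 CPM in each control, 116 CPM in KO replicate 1 and 111 CPM in KO replicate 2. The control libraries differed from each other by far less than they did from the KO libraries. The mean went from 143 ± 0.138 to 113 ± 3.18 CPM (SD, n = 2), which is a log2 fold change (-0.34 ± 0.08 SE) whose adjusted p in edgeR was 0.0394. Il6st (chromosome 13, 112464070 to 112510086) had 179.5 and 177 CPM in the controls and 146 and 151 CPM in the KO libraries. These groups did not overlap either, but the log2 fold change of -0.27 ± 0.08 (SE) did not pass (edgeR adjusted p = 0.0678). Per kilobase of exon, Lifr made up 45.1% and 45.4% of the sum of the receptor pair in control libraries against 45.0% and 43.2% in KO libraries, while that sum went from 29.5 and 29.2 to 23.8 and 23.9 CPM per kilobase. In bulk RNA, fewer cells that express a gene and less of its RNA per cell cannot be told apart.

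The call of Lifr was narrow. Lifr transcripts are 44.4% GC, and the 3177 genes of like GC content had a median log2 fold change of -0.07. With the GC-content offset the log2 fold change of Lifr was -0.20 with an edgeR adjusted p of 0.10, and over the alternatives with all 4 libraries its adjusted p ran from 0.0186 to 0.117. With upper-quartile scaling it was 0.0505. Without control replicate 1 or control replicate 2 the log2 fold change remained -0.34 and the edgeR adjusted p was 0.378 and 0.387.

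The 3 kinase genes went in different directions, and none of the 3 passed the test. At an unadjusted p under 0.05 Jak2 was lower and Tyk2 higher, and DESeq2 called Jak2 lower with an adjusted p of 0.0494. Jak1 (chromosome 4, 101152367 to 101265282), the kinase on which gp130 chiefly relies, had 104 and 102 CPM in the controls and 117 and 100.4 CPM in the KO libraries. The control values lie between those of the KO libraries, and the log2 fold change was 0.08 ± 0.10 (SE). Jak2 (chromosome 19, 29251828 to 29313080) had 21.97 and 20.5 CPM in control cells, against 16.7 CPM in KO replicate 1 and 13.6 CPM in KO replicate 2. Both KO libraries lay below both controls, at 0.785 and 0.642 times the control mean, with a log2 fold change (-0.49 ± 0.14 SE) whose adjusted p in edgeR was 0.0659, which ran from 0.0207 to 0.0911 over the alternatives with all 4 libraries. Tyk2 (chromosome 9, 21104068 to 21131243) had 55.1 and 57.9 CPM in the controls and 65.0 and 68.6 CPM in the KO libraries. It was higher in both, with a log2 fold change (0.24 ± 0.09 SE) whose adjusted p in edgeR was 0.114, and 0.08 with the GC-content offset, its transcript being 57.0% GC.

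Jak3, the family member best known from lymphocytes, is not among the 10 genes but rose most of all genes of the pathway that were listed. It had 19.8 and 20.4 CPM in the controls and 48.1 and 39.8 CPM in the KO libraries, a 2.18-fold rise with a log2 fold change (1.13 ± 0.13 SE) whose adjusted p in edgeR was 0.00916. Every KO library stood above every control, and the call held under all alternatives run, with a log2 fold change of 0.87 with the GC-content offset. Per kilobase of exon, the share of Jak3 in the sum of the 4 JAK genes went from 12.2% and 12.5% in the controls to 23.7% and 21.8% in the KO libraries, and that of Jak2 from 14.3% and 13.4% to 8.72% and 7.97%. Jak1 remained the largest, at 47.1% and 46.4% in control libraries against 42.7% and 40.8% in KO libraries. The sum of the 4 JAK genes went from 30.5 CPM per kilobase in each control to 38.0 and 34.0 in the KO libraries. The smaller share of Jak1 therefore does not mean less Jak1 RNA. These shares are not corrected for GC content. Jak3 shares 404 exon bases on the same strand with Insl3, which itself had 3 to 9 counts per library.

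Stat3 RNA was the most abundant of the STAT genes and fell 1.47-fold in the KO cells. Stat3 (chromosome 11, 100885098 to 100939540) had 376 and 377 CPM in control cells, against 252 CPM in KO replicate 1 and 260.2 CPM in KO replicate 2. The gap between the groups was many times the gap within either. The mean went from 376 ± 1.04 to 256 ± 5.66 CPM (SD, n = 2), which is a log2 fold change (-0.55 ± 0.08 SE) whose adjusted p in edgeR was 0.0128. This call held under the 10 other alternatives that keep all 4 libraries and this gene, with an adjusted p of 8.6e-05 to 0.0155, but not without control replicate 1 (log2 fold change -0.56, edgeR adjusted p = 0.0674) or control replicate 2 (log2 fold change -0.55, edgeR adjusted p = 0.0758). Stat5b (chromosome 11, 100780731 to 100850724), a STAT best known from growth hormone and prolactin signalling, had 21.1 and 22.6 CPM in the controls and 17.9 and 17.5 CPM in the KO libraries. The groups did not overlap, and the log2 fold change of -0.30 ± 0.11 (SE) did not pass (edgeR adjusted p = 0.117).

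Stat3 made up a smaller share of all STAT RNA in the KO libraries. Per kilobase of exon, Stat3 held 66.3% and 65.7% of the summed level of the 7 STAT genes in control libraries against 56.4% and 56.5% in KO libraries. The share of Stat6, the STAT of interleukin-4 signalling, went from 14.2% and 14.8% to 21.6% and 21.9%. Stat6 itself had 37.1 and 39.3 CPM in the controls and 44.6 and 46.6 CPM in the KO libraries, a log2 fold change of 0.26 that did not pass (edgeR adjusted p = 0.117). The summed level of all 7 went from 59.5 and 60.2 to 46.9 and 48.3 CPM per kilobase. Stat2 (log2 fold change -0.15), Stat4 (0.26) and Stat5a (-0.37) did not pass the test. Stat3 and Stat5a lie tail to tail on opposite strands and share 72 exon bases, and since the strand setting of the counting is not given, their reads there may not be separable.

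Stat3, Stat5b and Socs3 lie on chromosome 11, where most genes were lower in the KO cells. Of the 1322 tested genes of that chromosome, 40.5% were called lower, 0.681% were called higher and 88.6% had a log2 fold change below 0. Of the 14790 other genes 5.71% were called lower, 6.21% higher and 46.1% were below 0. Its median log2 fold change was -0.46, or 0.729 times the control level. Stat3 lay 0.10 below this median, and 37.7% of the genes of chromosome 11 had a lower value. Stat5b lay 0.15 above it, with 69.7% of the genes lower, and Socs3 lay 0.30 above it, with 81.5% lower. With the GC-content offset the median was -0.50, Stat3 lay 0.11 below it, and Stat5b and Socs3 lay 0.13 and 0.15 above it. All 3 therefore sat inside the middle spread of their chromosome, between its 10% and 90% quantiles of -0.94 and 0.05, so the fall of Stat3 cannot be told apart from that of the chromosome as a whole.

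Chromosome 11 also carries 5 further genes listed for this pathway, and all 8 were lower in both KO libraries than in both controls, as were 77.0% of all tested genes of that chromosome. The LIF gene itself, Lif, had 25.4 and 20.7 CPM in the controls and 17.8 and 15.8 CPM in the KO libraries, a log2 fold change of -0.46 ± 0.15 (SE) that did not pass (edgeR adjusted p = 0.0834). The values of the others were -0.30 for Osm, which encodes the related cytokine oncostatin M, -0.37 for Stat5a, -0.55 for Socs7 and -0.40 for Grb2. The last of these, the SH2 adaptor that couples SHP2 to RAS, and Socs7 were called lower. The median of the 8 was -0.39, and that of the 43 other tested genes of the pathway, the members off chromosome 11 included, was 0.03, close to the 0.04 of all genes off chromosome 11. Off chromosome 11, 3 of these 43 were called lower (6.98%, against 5.71% of all genes off that chromosome) and 1 higher (2.33%, against 6.21%).

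**Figure D2:**
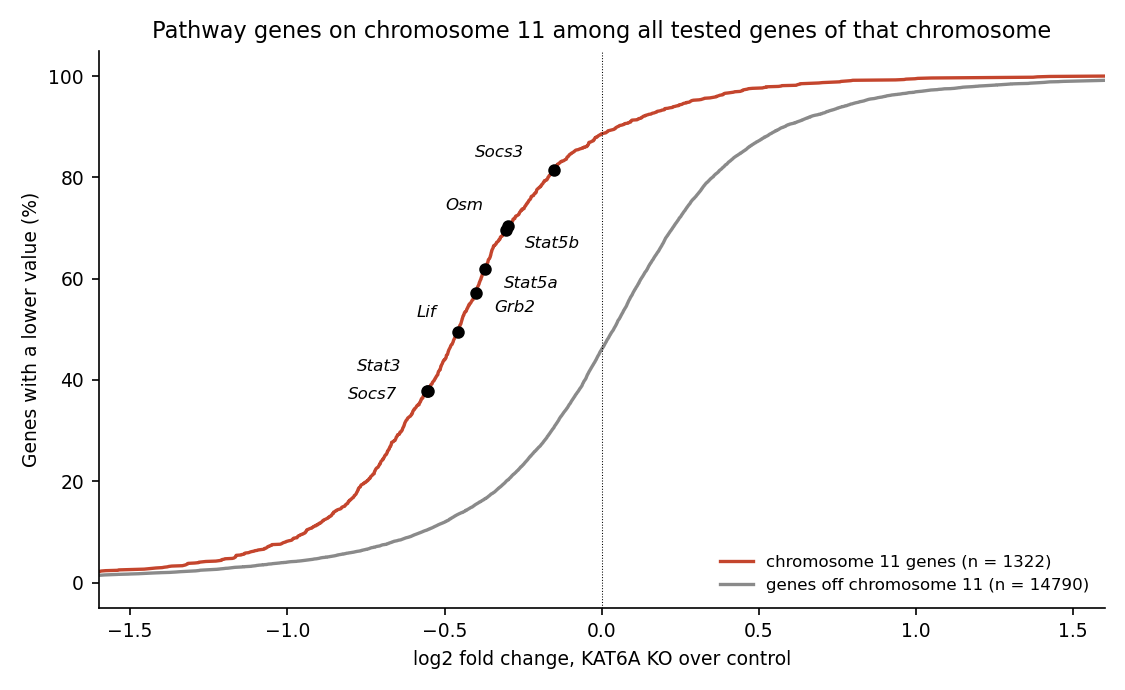
Cumulative share of genes (vertical axis, percent) against log2 fold change, KAT6A KO over control (horizontal axis), for the 1322 tested genes of chromosome 11 (red) and the 14790 other genes (grey), with the 8 pathway genes of chromosome 11 as black points. The 8 genes lie along the steep part of the red curve, from 37.7% for Stat3 to 81.5% for Socs3, and all lie below 0.

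The genes next to Stat3 were mostly lower as well. Stat5b, Stat5a and Stat3 form a cluster, with the start of Stat5b 88.8 kb from that of Stat3. Within 500 kb of the Stat3 start, 42 other genes were tested, of which 39 had a log2 fold change below 0 and 19 were called lower. The median of these neighbours was -0.36. Over all tested genes of chromosome 11, 88.6% were below 0 and 40.5% were called lower, so these counts are near the rate of the chromosome. The nearest on the other side, Cavin1, which encodes a coat protein of caveolae, was the lowest of the 42, with a log2 fold change of -1.29. Around Socs3, 17031 kb further along the chromosome, 18 other genes were tested within 500 kb, 15 were below 0, 6 were called lower and the median was -0.39. The value of Socs3 (-0.15) was higher than this median, but with the GC-content offset it was -0.35. The neighbours were not compared with that offset.

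**Figure D3:**
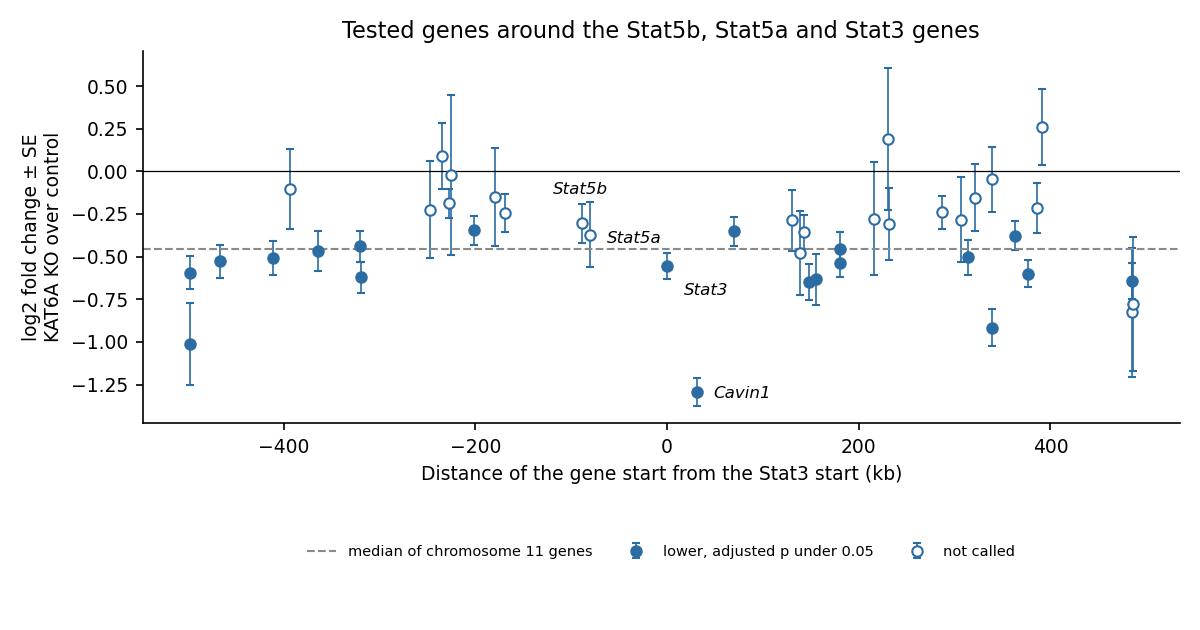
Log2 fold change ± SE, KAT6A KO over control (vertical axis), of the tested genes whose start lies within 500 kb of the Stat3 start, by distance in kb (horizontal axis). Filled points are genes called lower, open points were not called, and the dashed line is the chromosome 11 median of -0.46, on both sides of which the neighbours of Stat3 fall.

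The feedback genes Socs3 and Socs2 did not pass the test. Socs3 (chromosome 11, 117966079 to 117970047), the direct STAT3 target that limits signalling through gp130, had 174 and 179.9 CPM in control cells, against 171 CPM in KO replicate 1 and 147 CPM in KO replicate 2. KO replicate 1 lay just under the controls and KO replicate 2 clearly under them, at 0.969 and 0.832 times the control mean. The log2 fold change (-0.15 ± 0.10 SE) did not pass, at an adjusted p of 0.325 in edgeR, and it was -0.35 with the GC-content offset, the transcript being 58.7% GC. Socs2 (chromosome 10, 95385362 to 95417180), which dampens growth hormone signalling, had 47.2 and 53.4 CPM in the controls and 55.3 and 47.2 CPM in the KO libraries. The groups overlapped fully, with a log2 fold change of 0.03 ± 0.12 (SE). Ptpn11 (chromosome 5, 121130533 to 121191397) had 153 CPM in each control, 129.7 CPM in KO replicate 1 and 154 CPM in KO replicate 2. The KO libraries lay on different sides of the controls, and the log2 fold change was -0.11 ± 0.10 (SE).

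**Figure D4:**
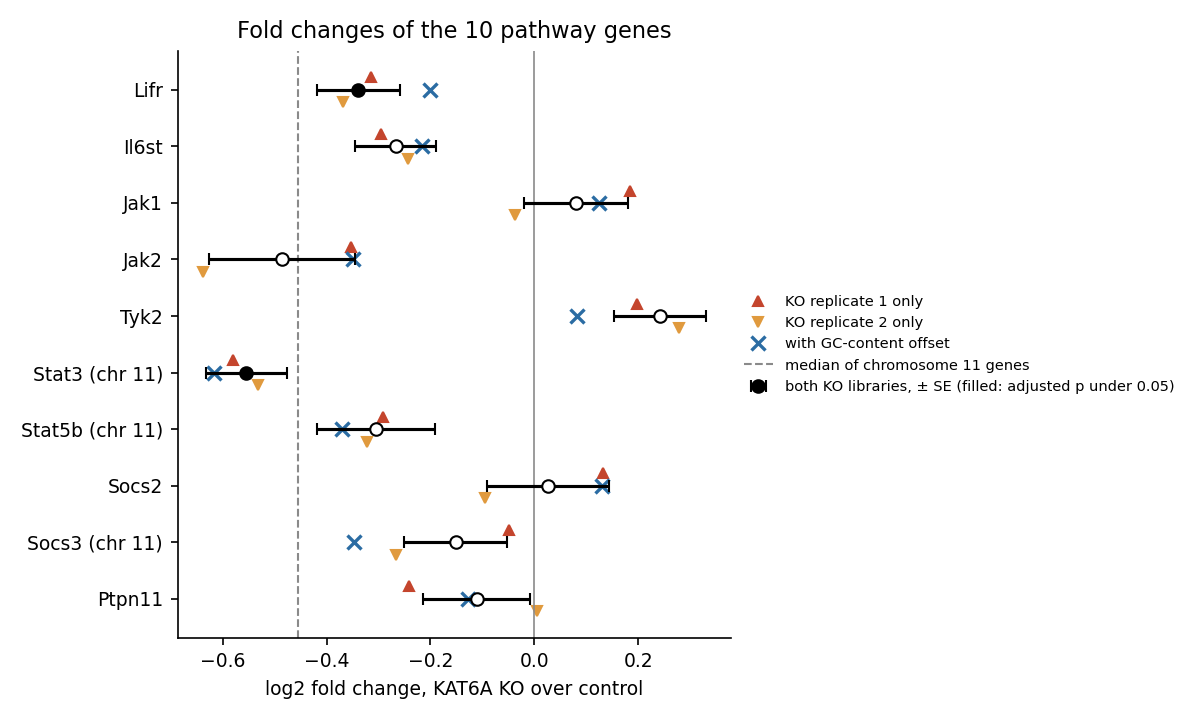
Log2 fold change, KAT6A KO over control (horizontal axis), of the 10 pathway genes (vertical axis), as the fit of all libraries ± SE (circles, filled where the adjusted p was under 0.05), with each KO library alone against both controls (triangles), and with the GC-content offset (crosses). Both KO libraries gave a value below 0 for Lifr, Il6st, Jak2, Stat3, Stat5b and Socs3 and above 0 for Tyk2, while those of Jak1, Socs2 and Ptpn11 fell on either side of 0.

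The order of the levels was nearly the same in both groups when counts were divided by exon length. In the controls, in mean CPM per kilobase, Socs3 led with 61.2, followed by Stat3 (39.5), Ptpn11 (20.4), Il6st (16.1), Jak1 (14.3), Lifr (13.3), Tyk2 (8.24), Socs2 (5.28), Jak2 (4.22) and Stat5b (3.95). Jak2 and Stat5b overlapped between libraries, and the other neighbours in this order did not. In the KO libraries Jak1 (15.1) stood above Il6st (13.4) and Stat5b (3.20) above Jak2 (3.01), and again only the last pair overlapped. Socs3 was at 55.1 and Stat3 at 26.9 CPM per kilobase, so their ratio was larger than in the controls. The exon length counts all annotated exons of a gene, and a gene whose cells use short transcripts is set too low on this scale.

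Of the other genes of the pathway, 43 were listed and 41 tested. Of these, 1 rose (2.44%, against 5.76% of all genes) and 4 fell (9.76%, against 8.57%), so neither share is far above the background. Their median log2 fold change was 0.02. The list held other cytokines and receptors of the family, the remaining JAK, STAT and SOCS genes, the PIAS inhibitors, phosphatases, and the adaptors and kinases of the ERK and PI3K arms. Besides Jak3, the genes that passed were Il6ra, Socs5, Socs7 and Grb2. Il6ra, the binding chain of the interleukin-6 receptor, had 9.85 and 9.96 CPM in the controls and 6.87 and 6.26 CPM in the KO libraries, a log2 fold change (-0.59 ± 0.15 SE) whose adjusted p in edgeR was 0.0447. Socs5 had 21.9 and 22.1 CPM in the controls and 16.4 and 13.1 CPM in the KO libraries (log2 fold change -0.58, edgeR adjusted p = 0.0464). Socs7 went from 80.8 and 79.8 to 51.7 and 57.7 CPM (edgeR adjusted p = 0.0178), and Grb2 from 184 and 191 to 135 and 149 CPM (edgeR adjusted p = 0.0338). In each of these 4 genes both KO libraries lay below both controls, as they did in 32.8% of all genes. For genes picked because they passed the test, such separation is nearly given. None of the 4 was called without control replicate 1 (edgeR adjusted p from 0.101 to 0.333) or without control replicate 2 (0.088 to 0.359), and with upper-quartile scaling Il6ra and Socs5 missed the threshold (0.0515 and 0.0557). Over the alternatives with all 4 libraries the adjusted p of Il6ra ran from 0.0234 to 0.0526 and that of Socs5 from 0.00877 to 0.0564.

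The genes of this list that did not pass had log2 fold changes on both sides of 0. The lowest were those of Osmr, the oncostatin M receptor chain (-1.21, edgeR adjusted p = 0.0981), and Ctf1, which encodes the cytokine cardiotrophin (-0.74, edgeR adjusted p = 0.0916), both at 2.11 CPM or less in every library. The highest were those of the receptor genes Il11ra1 (0.52) and Cntfr (0.48). Among the ligands, Il6 had 3 counts in each control and 0 in each KO library, which is too few to compare, and with Cntf was not tested. The 13 genes of the ERK and PI3K arms, those called included, ran from -0.40 for Grb2 to 0.34 for Shc1, an adaptor of the ERK arm (edgeR adjusted p = 0.0512), and Mapk3, which encodes an ERK kinase, had a log2 fold change of 0.28. Of the PIAS genes, whose products restrain STAT proteins, Pias4 had the largest value, 0.37, with an edgeR adjusted p of 0.0558. Pias3, named for its binding of STAT3, had 0.12.

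Of 17 genes listed as responding to LIF or STAT3, all of them tested, 4 rose (23.5%, against 5.76% of all genes) and 1 fell (5.88%, against 8.57%). Their median log2 fold change was 0.18, and that of all genes 0.01. Neither these shares nor these medians are corrected for GC content, and the 3177 genes highest in GC had a median of 0.23. With the GC-content offset 2 of the 17 were called higher and 1 lower. Tfcp2l1, a transcription factor through which STAT3 sustains self-renewal, rose 1.51-fold. It had 526 and 484 CPM in the controls and 855 and 672 CPM in the KO libraries (log2 fold change 0.60 ± 0.13 SE, edgeR adjusted p = 0.032). Sall4, a zinc finger factor of the pluripotency network, rose 1.41-fold, from 332 and 351 to 472 and 491 CPM (edgeR adjusted p = 0.017). Pim3, a serine/threonine kinase, went from 243 and 277 to 333 and 437 CPM (log2 fold change 0.56, edgeR adjusted p = 0.0486). Bcl2l1, which encodes the survival protein BCL-XL, went from 82.2 and 83.4 to 117 and 100.3 CPM (0.39, edgeR adjusted p = 0.0498). In these 4 genes both KO libraries stood above both controls, as they did in 31.5% of all genes. Such separation is nearly given for genes picked because they passed the test. The calls of Pim3 and Bcl2l1 ended with the GC-content offset, at log2 fold changes of 0.26 each (edgeR adjusted p = 0.113 and 0.177), while those of Tfcp2l1 and Sall4 held (0.65 and 0.40). Over the alternatives with all 4 libraries the adjusted p of Pim3 ran from 0.00082 to 0.113 and that of Bcl2l1 from 0.0145 to 0.177.

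Pramel7, a gene of the Prame-like family that LIF and STAT3 maintain in ES cells, fell 3.32-fold. It had 18.3 and 18.2 CPM in the controls and 5.95 and 5.06 CPM in the KO libraries, a log2 fold change (-1.73 ± 0.15 SE) whose adjusted p in edgeR was 0.00555. The call held under all alternatives run, with log2 fold changes from -1.85 to -1.58. Klf4 and Klf5, Krüppel-like factors of naive ES cells, did not pass, with log2 fold changes of 0.02 each and 264 to 295 CPM for Klf4 and 404 to 477 CPM for Klf5 over all libraries. Junb, an AP-1 subunit, was at 0.15, Fos at -0.49, Myc at -0.13 and the kinase gene Pim1 at 0.37, none of which passed. Sall4 was no longer called when control replicate 1 (edgeR adjusted p = 0.224) or control replicate 2 (0.108) was left out, nor Tfcp2l1 without control replicate 2 (0.119), Pim3 without control replicate 1 (0.193), or Bcl2l1 without control replicate 1 (0.349) or control replicate 2 (0.289). Without chromosome 11 in the fit Tfcp2l1, Pim3 and Bcl2l1 missed the threshold (edgeR adjusted p = 0.0528, 0.0717 and 0.0798), at log2 fold changes of 0.56, 0.53 and 0.36. Without KO replicate 1 the log2 fold change of Tfcp2l1 was 0.41, and without KO replicate 2 that of Pim3 was 0.35.

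**Figure D5:**
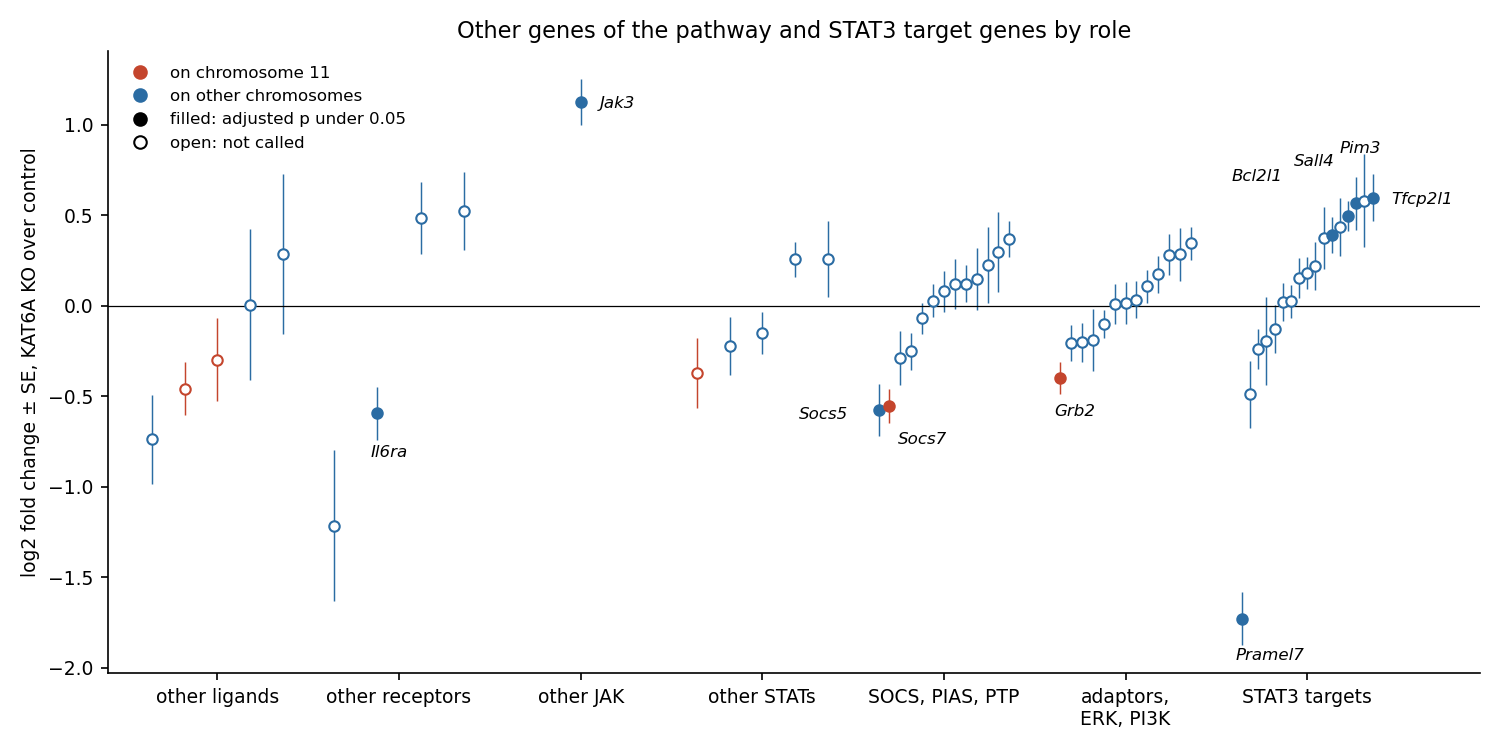
Log2 fold change ± SE, KAT6A KO over control (vertical axis), of the tested other genes of the pathway and of the STAT3 target genes, grouped by role (horizontal axis). Red points lie on chromosome 11 and blue points elsewhere, filled points passed an adjusted p under 0.05, and the 10 named genes are those that passed, from -1.73 for Pramel7 to 1.13 for Jak3.

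The authors' deposited table of their own comparison gave the same pair of members. In the authors' deposited table Stat3 had a log2 fold change of -0.53 with an adjusted p of 9.2e-05 and Lifr one of -0.32 with an adjusted p of 0.0432, while Jak2 (adjusted p = 0.0521) and the other 7 were not under 0.05. Of the genes with an adjusted p in the authors' deposited table, 17.0% were under 0.05 and 10.1% were lower. It used the same libraries and is no independent evidence.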

How the data were processed

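Messenger RNA of 4 libraries was analysed, 2 control and 2 KAT6A KO, grouped and numbered by the sample titles. Per the labels' protocols, RNA was purified on columns with DNaseI, and the library kit was TruSeq Stranded mRNA. The deposited tables hold whole-number counts for gene symbols. Tools named in the submitters' processing notes are featureCounts and DESeq2. The alignment, its genome build, the gene models and the use of strand were not given in the sources used here. The authors also deposited normalized counts (a signal, equal to the counts divided by a factor of 0.848 to 1.15 per library) and a table without a header, whose columns were identified from their values as mean signal, log2 fold change and its SE, a Wald score, and p-values.

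The count test was edgeR 4.0.16 under R 4.3.3: filterByExpr by group, TMM scaling, robust quasi-likelihood test with the group only, Benjamini-Hochberg adjustment over 16112 genes, threshold 0.05. Each SE is the fold change divided by the root of its F value. Alternatives used limma 3.58.1, DESeq2 1.42.0, other scalings and filters, a GC-content offset (lowess span 0.3), the replicate number as a block, no chromosome 11, and each library left out. The procedure was tested on simulated data. Positions, exon lengths and GC content came from GENCODE M21 (97.3% of symbols found), start regions from RefSeq. Python 3.11.15, pandas 2.3.3 and matplotlib 3.10.9 made tables and plots. All 10 members, the called genes of each list (8 or fewer) and Kat6a were named by rule, and other genes were named after their values were seen. Members and lists were chosen with earlier results of these data known. Genes were not ranked by likeness of pattern, since 4 libraries in 2 groups give many genes the same one. Intervals and SDs rest on 2 libraries per group. Some genes of the lists are counted but not reported here by name.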

Additional observations from a re-analysis of the deposited data

How the results depend on the processing

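Of the 10 members 2 were called, and 1 with upper-quartile scaling, with the GC-content offset, with the replicate block and GC-content offset together, and without chromosome 11 (Lifr there, since Stat3 is left out by construction, and Stat3 in the others). Of the other pathway genes 5 were called, 9 with no low-count filter, 9 with the replicate block and 1 without chromosome 11. Of the STAT3 targets 5 were called, 8 with the replicate block, 3 with a minimum of 1 CPM in 2 libraries, 3 with the GC-content offset, 3 with that offset and the replicate block, and 2 without chromosome 11. Over all genes 2309 were called, 3760 with the replicate block and 1216 without chromosome 11. Leaving out each library gave 0 to 8 members, 1 to 22 pathway genes, 2 to 15 targets and 924 to 8420 of all genes, with the low counts when a control and the high counts when a KO library was left out. The spread then came from the remaining pair alone. With 0 members called by edgeR, 1 (without control replicate 1) and 2 (without control replicate 2) had an unadjusted p under 0.05, and no other tool was run on 3 libraries. Log2 fold changes changed sign for Socs2 without chromosome 11 (-0.0054). With each library left out they ran from -0.094 to 0.132 for Socs2, from -0.037 to 0.184 for Jak1, from -0.241 to 0.0054 for Ptpn11 and from -0.736 to 0.75 for Kat6a, with the sign of the last 3 changed without KO replicate 1 and that of Socs2 without that library and without control replicate 1 (-0.066). The cause of these changes was not tested. The labels do not say that a replicate number marks a shared origin, and deviations of same-numbered libraries correlated at 0.129 across genes, over 2 pairs only, so the numbers were not taken as pairs. With the replicate block 3 members were called, Jak2 being added (edgeR adjusted p = 0.0207), and no member lost its call. Jak3 and Pramel7 were called under all alternatives. Each member was covered by 375 or more counts in every library, and precision is also limited by having 2 libraries per group.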
